A study of Mus musculus with 6 samples.

Results

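Collagen chain genes were followed in retina of 5XFAD mice with and without efavirenz (EFV). They were taken as every gene whose symbol has the form Col, a number, a and a number, which gave 44 of the 19401 genes listed in at least 1 library. By structure, 11 of them encode fibrillar chains, 8 encode basement membrane chains and 25 belong to other classes, which are the FACIT chains that sit on fibrils (9), the beaded filament chains of type VI (6), the network-forming chains of types VIII and X (3), the transmembrane chains (4) and the anchoring and remaining chains (3).

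RNA was sequenced from 6 pools of retina, 3 from control mice (control 1 to 3) and 3 from mice given EFV (EFV 1 to 3), each made from 5 to 6 animals. All mice were 5XFAD animals aged 9 months, which the study describes as male and hemizygous for transgenes of mutant human amyloid precursor protein and mutant human presenilin 1 on the B6SJL background, so no group without the transgenes was part of the comparison. The treated mice drank EFV, an inhibitor of the HIV reverse transcriptase that at low doses also activates the cholesterol hydroxylase CYP46A1, from 3 to 9 months of age at a labelled dose of 0.08 mg per kg of body weight, and the study's methods give a slightly higher dose. According to these methods the pools also held the retinal pigment epithelium (RPE), and because animals were pooled, the differences among libraries of a group are those among pools and not among single mice.

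Collagens are secreted or membrane-bound proteins made of chains wound into a helix, in which every turn needs glycine. Fibrillar collagens form the fibres of sclera, vessel walls and vitreous, type IV collagen forms the sheet that carries endothelium, RPE and Müller glial endfeet, and the types VI and VIII form fine networks around them. In the eye, type II, IX and XI chains build the vitreous gel, type VIII chains are abundant in the membrane beneath the corneal endothelium, and type IV, VI and VIII chains are found in Bruch's membrane beneath the RPE.

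Each library held a similar number of counts, 24590278, 23455167 and 24337444 in control 1 to 3 and 24487218, 24360060 and 24160101 in EFV 1 to 3. Collagen chains took 0.0743%, 0.0691% and 0.0863% of the counts in the control libraries and 0.0790%, 0.0793% and 0.0878% in the EFV libraries. The groups overlapped, with control 2 lowest and EFV 3 highest.

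Control 3 and control 2 stood apart from the other libraries in markers of neighbouring tissues. The 8 lens genes summed to 834 FPKM (fragments per kilobase of transcript, scaled to the library total) in control 3, against 14.7 and 27.7 FPKM in control 1 and 2 and 25.1, 8.95 and 34.7 FPKM in EFV 1 to 3. Cryba1, a lens crystallin, was the most abundant of them, and none of the 8 was at 0 in any library. The 7 RPE genes summed to 73.3, 44.7 and 70.8 FPKM in control 1 to 3 and to 67.9, 79.3 and 78.1 FPKM in EFV 1 to 3, led by Ttr, the carrier of thyroxine and retinol, and again with no gene at 0. The RPE sum was thus lowest in control 2, and the groups overlapped. Without control 2, the RPE sums of the other 5 libraries lay between 67.9 and 79.3 FPKM.

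The retina expressed a small number of collagen chains at a high level and many at a low one. On the FPKM scale, which allows for gene length, 9 of the 44 chains had a mean over the 6 libraries of at least 5 FPKM and together made up 67.5% of the summed collagen level. These were Col6a1 (17.4 FPKM), Col23a1 (16.9), Col9a1 (13.7), Col2a1 (11.6), Col4a1 (8.41), Col4a3 (8.09), Col20a1 (7.51), Col18a1 (6.68) and Col4a2 (6.38). A mean below 1 FPKM was found for 21 chains, among them the chains of the most common body collagens, Col1a1 (0.347 FPKM), Col1a2 (0.818) and Col3a1 (0.0767, named after its values were seen). Collagen RNA in these pools was therefore led by type VI, XXIII, IX, II and IV chains, and not by types I and III.

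**Figure D1:**
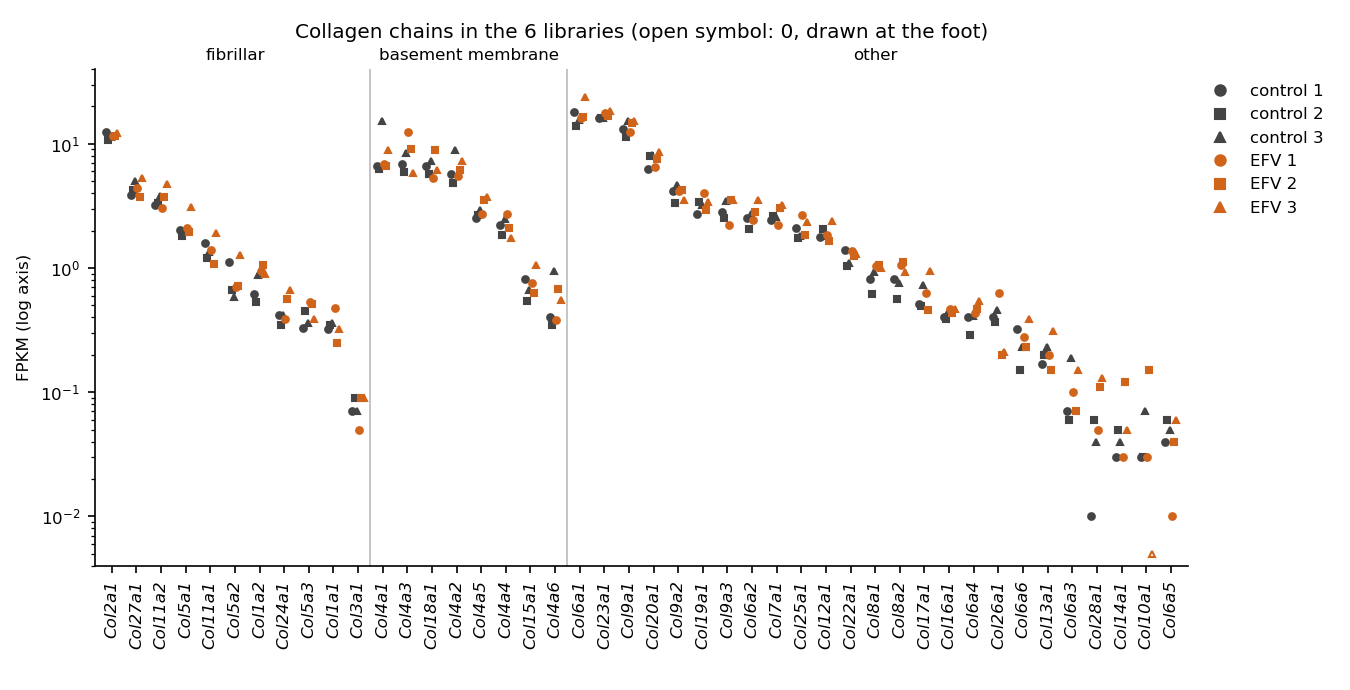
FPKM of the 44 collagen chains (x axis, by class and then by mean level) in the 3 control (grey) and 3 EFV (orange) libraries, on a log axis. Col4a1 was highest in control 3 at 15.1 FPKM, and Col10a1 was at 0 in EFV 3 (open symbol).

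Of the 44 chains, 41 had enough counts to be tested (at least 10 in at least 3 of the 6 libraries). None passed an adjusted p of 0.05 in the quasi-likelihood test of edgeR, and neither did any of the 15537 genes tested (0%), while DESeq2 called 11 genes, no collagen chain among them, and limma on log2(FPKM + 0.1) called 0. At an unadjusted p of 0.05 or less, 3 of 41 chains were called by edgeR, Col8a2, Col1a2 and Col23a1, against 472 of all genes (3.04%). All 3 were higher with EFV, a direction in which 1.49% of all genes were called, and every tested chain had an adjusted p of 0.999. DESeq2 called 2 of these 3 at the unadjusted threshold, and limma called the same 3. Leaving out control 2 reduced the 3 chains to 1, with 389 of 15423 genes called in that fit. Leaving out EFV 1 raised them to 8, with 434 of 15437 genes called, and 1 of the 8 was shared with the 3. Of these 8, Col4a5, Col5a1, Col6a1, Col6a2, Col7a1, Col8a2 and Col24a1 were higher with EFV, and Col26a1 was lower.

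The tested chains also leaned to the EFV side in direction. Their fitted log2 fold change was above 0 for 34 of 41 chains and below 0 for 7, while 50.5% of all genes tested were above 0, and their median log2 fold change was 0.13 against 0.00 over all genes. All 11 fibrillar chains were above 0 (median 0.12), as were 19 of 22 chains of the other classes (median 0.13), and basement membrane chains were divided 4 to 4 (median 0.00). Without control 3 the basement membrane median was 0.24, against 0.14 for fibrillar chains and 0.20 for the other classes, and without EFV 3 the medians were 0.06, 0.05 and 0.03 in the same order. The difference between classes was not tested. For 24 of the 41 chains the log2 fold change was smaller than its own standard error, whose median was 0.18, as it was for 10821 of all 15537 genes. Without EFV 3 the median over the tested chains was 0.03, and 27 of 40 chains were above 0. Without control 2 it was 0.11, again with 27 of 40 above 0, and without control 3 it was 0.20. Chains in 1 library share its tissue and its depth, so their directions are not separate observations, and the count was not tested. RPE markers were above 0 in 6 of 7 genes (median 0.33), and melanocyte markers in 4 of 5 (median 0.47). Ciliary body and iris markers were above 0 in 5 of 5 (median 0.25). Astrocyte and skeletal muscle markers were above 0 in 4 of 4 (median 0.29) and 3 of 3 (median 0.15). For microglia and macrophage, cornea and surface epithelium, and fibroblast and stroma markers it was 4 of 5, 3 of 4 and 3 of 5. Above 0 were 0 of 8 endothelial, 1 of 6 Müller glial, 1 of 5 rod and 2 of 8 pericyte and smooth muscle markers. Lens markers were above 0 in 0 of 7, with a median of -3.61 in all libraries and -0.02 without control 3. The part of these tissues in the direction of the chains was not tested.

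**Figure D2:**
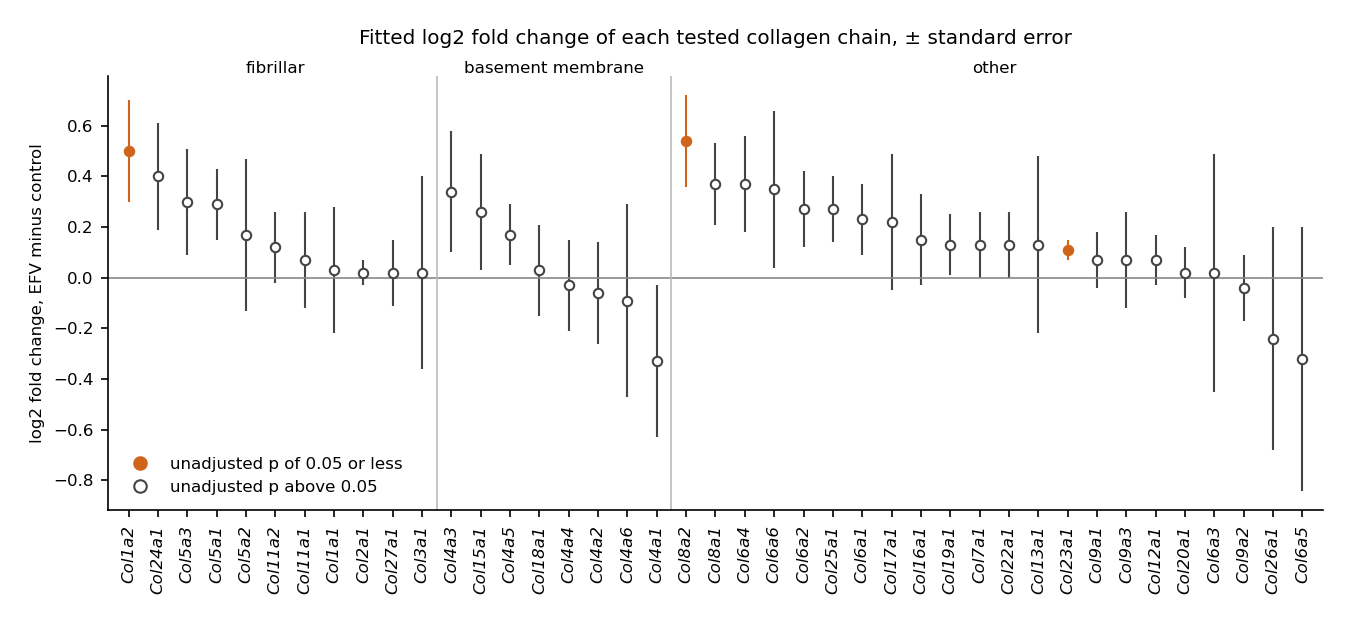
Fitted log2 fold change of the 41 tested collagen chains, EFV minus control, with its standard error, by class (edgeR). Filled orange points mark the 3 chains at an unadjusted p of 0.05 or less, and 34 of the 41 points lie above 0.

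Libraries differed in how often they held the lowest or highest value of a chain. After scaling, control 2 was the lowest of the 6 libraries for 21 of the 41 chains, against 18.0% of all genes tested, and EFV 3 was the highest for 18 of 41, against 19.0% of all genes. Control 1 was the lowest for 4 chains, and EFV 1 and EFV 2 were each the lowest for 6.

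In 6 of 41 chains the 3 EFV values lay wholly apart from the 3 control values in counts scaled to the library total (CPM), against 8.14% of all genes tested. In all 6 the EFV values were the higher ones, which was the case for 3.95% of all genes. They were Col1a2, Col5a1, Col8a1, Col8a2, Col23a1 and Col6a4, the last of which is named because of this count, after its values were seen. On the deposited FPKM scale the count was 5, because the groups of Col5a1 overlapped there.

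Among the fibrillar chains, Col2a1, the chain of the main vitreous and cartilage collagen, was the most abundant. It stood at 12.4, 10.7 and 11.4 FPKM in the control libraries and 11.6, 11.5 and 12.2 FPKM in the EFV libraries. The groups overlapped, and the 6 values lay within 1.16-fold of each other (log2 fold change 0.02 ± 0.05 SE, unadjusted p = 0.63). Col27a1, a minor fibrillar chain of cartilage, measured 3.84, 4.22 and 5.04 FPKM in the control and 4.41, 3.70 and 5.35 FPKM in the EFV libraries, again with overlap (log2 fold change 0.02 ± 0.13). Col11a2 and Col11a1, which set fibril diameter together with type II collagen, had means of 3.63 and 1.42 FPKM and were both highest in EFV 3, at 4.71 and 1.92 FPKM.

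Col1a2, which pairs with Col1a1 in type I collagen, was the fibrillar chain at an unadjusted p below 0.05. It lies at chr6:4505618-4541543 (Entrez 12843, build GRCm38). It held 79, 64 and 109 counts in the control and 120, 132 and 111 counts in the EFV libraries, which are 0.62, 0.53 and 0.87 FPKM and 0.95, 1.05 and 0.89 FPKM. Every EFV library was above every control library, though by a narrow gap between control 3 and EFV 3. The fitted log2 fold change was 0.50 ± 0.20 (SE), with an unadjusted p of 0.0312 in edgeR. Without control 1, control 2, EFV 1 and EFV 2 in turn, the log2 fold change was 0.44, 0.36, 0.52 and 0.42, and the unadjusted p was 0.087, 0.11, 0.056 and 0.098. It was 0.72 (unadjusted p = 0.0032) without control 3 and 0.56 (unadjusted p = 0.037) without EFV 3. Its partner Col1a1 measured 0.32, 0.35 and 0.36 FPKM in the control and 0.48, 0.25 and 0.32 FPKM in the EFV libraries. These values overlapped, with the highest and the lowest both in EFV libraries (log2 fold change 0.03 ± 0.25, unadjusted p = 0.92).

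Col5a1, a chain that starts and limits the growth of type I fibrils, measured 2.01, 1.82 and 1.94 FPKM in the control and 2.10, 1.95 and 3.11 FPKM in the EFV libraries. EFV 3 stood well above the rest, while EFV 2 lay between control libraries. The log2 fold change was 0.29 ± 0.14 (edgeR, unadjusted p = 0.0702). It was 0.09 (unadjusted p = 0.32) without EFV 3, 0.36 (unadjusted p = 0.047) without EFV 1 and 0.40 (unadjusted p = 0.023) without EFV 2. The partner chain Col5a2 was also highest in EFV 3, at 1.28 FPKM, followed by control 1 at 1.11 FPKM, and the other 4 libraries lay between 0.58 and 0.71 FPKM. The log2 fold change of Col5a2 was 0.17 ± 0.30, and it was -0.17 without EFV 3. Col1a2, Col5a1 and Col8a2 are named in the gene tables of the study, which were drawn from these same libraries, so that their direction here is not independent evidence.

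The remaining fibrillar chains were low. Col24a1 and Col5a3, with means of 0.467 and 0.428 FPKM, had log2 fold changes of 0.40 ± 0.21 and 0.30 ± 0.21, and Col3a1 held 7 to 12 counts in a library (0.02 ± 0.38).

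Basement membrane chains differed more between single libraries than between the groups. Col4a1, which with Col4a2 forms the type IV collagen of nearly all basement membranes, measured 6.63, 6.21 and 15.1 FPKM in the control and 6.86, 6.64 and 8.97 FPKM in the EFV libraries. Control 3 was the highest, EFV 3 followed, and the other 4 libraries lay close together. Its log2 fold change was -0.33 ± 0.30 (edgeR, unadjusted p = 0.30) in all libraries and 0.20 (unadjusted p = 0.12) without control 3. Col4a2 was likewise highest in control 3, then in EFV 3, and lowest in control 2, with 5.74, 4.83 and 8.83 FPKM in the control and 5.47, 6.14 and 7.28 FPKM in the EFV libraries, and its log2 fold change turned from -0.06 ± 0.20 to 0.23 (unadjusted p = 0.089) without control 3. Col4a6 was highest in control 3 as well, at 0.94 FPKM against 0.35 to 0.68 FPKM in the other 5 libraries. The lens sum was also highest in control 3, at 834 FPKM, a match that rests on 1 library. The part of lens tissue in the values of these 3 chains was not tested. In bulk samples such as these, fewer cells of a type and less RNA per cell cannot be told apart.

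Col4a1 and Col4a2 are read in opposite directions from chromosome 8, and their shared control region is shown because both chains were highest in control 3. The RefSeq promoter windows (GRCm38.p6, 250 bases before to 50 bases after the start) were given for 35 of the 44 chains. They lie at chr8:11312777-11313076 on the minus strand for Col4a1 and chr8:11312555-11312854 on the plus strand for Col4a2, share 78 bases, and rest on starts at 11312826 and 11312805, so that the 5′ ends read from these starts overlap by 22 bases. The gene span of Col4a1 reaches further, to 11312889, and that of Col4a2 begins at the start on which its window rests. For comparison, 1342 bases separate the starts of Col4a6 and Col4a5 on chromosome X. The starts of Col4a3 and Col4a4 could not be compared in this way, because no window was given for Col4a3. The gene spans of these chains on chromosome 1, 82586921-82722059 for Col4a3 and 82448419-82587034 for Col4a4, also overlap. Capitals mark the letters CCAAT and GGGCGG on either strand (ATTGG and CCGCCC on the other), which are present in 37.4% and 35.7% of the 32851 promoter windows of all genes and in 34.2% and 60.5% of the 38 collagen windows.
Col4a1: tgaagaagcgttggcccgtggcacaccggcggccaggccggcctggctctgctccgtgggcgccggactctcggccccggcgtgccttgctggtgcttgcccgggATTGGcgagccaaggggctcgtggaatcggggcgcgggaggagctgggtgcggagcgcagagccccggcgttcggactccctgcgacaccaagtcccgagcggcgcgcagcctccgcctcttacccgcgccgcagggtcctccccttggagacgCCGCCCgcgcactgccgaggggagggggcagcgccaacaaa
Col4a2: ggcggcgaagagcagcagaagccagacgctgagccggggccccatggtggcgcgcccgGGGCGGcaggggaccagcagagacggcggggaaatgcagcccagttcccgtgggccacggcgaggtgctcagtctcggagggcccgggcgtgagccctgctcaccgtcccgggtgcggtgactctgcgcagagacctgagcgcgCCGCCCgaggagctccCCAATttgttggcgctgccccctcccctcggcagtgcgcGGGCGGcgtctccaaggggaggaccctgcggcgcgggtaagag
Each window held CCAAT on either strand 1 time, and GGGCGG was found 1 time for Col4a1 and 3 times for Col4a2, of which 1 lies in the shared bases and is counted in both windows. A match of letters is a description of the window and does not show that a factor binds.

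Col4a3 and Col4a4, chains of the type IV network of glomerulus, cochlea and eye, followed another order over the libraries. Col4a3 measured 6.84, 5.92 and 8.46 FPKM in the control and 12.5, 9.01 and 5.82 FPKM in the EFV libraries, so that EFV libraries held both the highest and the lowest value. The log2 fold change was 0.34 ± 0.24 (edgeR, unadjusted p = 0.20), and it was 0.58 (unadjusted p = 0.011) without EFV 3 and 0.04 (unadjusted p = 0.84) without EFV 1. Col4a4 was likewise highest in EFV 1 (2.70 FPKM) and lowest in EFV 3 (1.75 FPKM), with a log2 fold change of -0.03 ± 0.18. Col4a5 measured 2.52, 2.68 and 2.95 FPKM in the control and 2.72, 3.50 and 3.74 FPKM in the EFV libraries, with overlap through EFV 1 (log2 fold change 0.17 ± 0.12). Col18a1, the source of the angiogenesis inhibitor endostatin, was highest in EFV 2 (8.95 FPKM) and lowest in EFV 1 (5.35 FPKM), with a log2 fold change of 0.03 ± 0.18. Col15a1, its closest relative, had a mean of 0.747 FPKM and was highest in EFV 3 (1.06 FPKM).

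FACIT chains bind to the surface of fibrils. Col9a1, the partner of type II collagen in the vitreous, measured 13.2, 11.4 and 15.2 FPKM in the control and 12.3, 14.7 and 15.2 FPKM in the EFV libraries. Its groups overlapped, with control 2 lowest (log2 fold change 0.07 ± 0.11, unadjusted p = 0.53). Col20a1 had a mean of 7.51 FPKM and a log2 fold change of 0.02 ± 0.10, and Col9a2 had a mean of 4.03 FPKM and a log2 fold change of -0.04 ± 0.13. Col9a3 ranged from 2.21 FPKM in EFV 1 to 3.55 FPKM in EFV 2. The 8 tested FACIT chains spanned log2 fold changes from -0.04 to 0.15, the narrowest span of any class with more than 4 tested chains, and the lowest unadjusted p among them was 0.33.

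Type VI collagen was led by Col6a1, the collagen chain with the highest mean over the 6 libraries. Col23a1 was above it in control 2, control 3, EFV 1 and EFV 2. Col6a1 measured 18.0, 14.0 and 15.7 FPKM in the control and 16.1, 16.5 and 23.9 FPKM in the EFV libraries. EFV 3 was far above the others, and EFV 1 and EFV 2 lay within the control range. The log2 fold change was 0.23 ± 0.14 (edgeR, unadjusted p = 0.14), and it was 0.03 (unadjusted p = 0.74) without EFV 3 and 0.33 (unadjusted p = 0.048) without EFV 1. Col6a2 followed, with 2.51, 2.07 and 2.71 FPKM in the control and 2.45, 2.83 and 3.55 FPKM in the EFV libraries, also with overlap (log2 fold change 0.27 ± 0.15, unadjusted p = 0.10). It was 0.39 (unadjusted p = 0.026) without EFV 1, 0.13 (unadjusted p = 0.40) without EFV 3 and 0.17 (unadjusted p = 0.31) without control 2. Col6a3, the chain that completes the classical type VI trimer, had a mean of 0.107 FPKM, and was highest in control 3 (0.19 FPKM). Col6a4 measured 0.40, 0.29 and 0.41 FPKM in the control and 0.43, 0.47 and 0.54 FPKM in the EFV libraries, without overlap, at a log2 fold change of 0.37 ± 0.19 (edgeR, unadjusted p = 0.0853), which was 0.24 (unadjusted p = 0.26) without control 2 and 0.28 (unadjusted p = 0.22) without EFV 3. Col6a6 and Col6a5 had means of 0.267 and 0.0433 FPKM and overlapping groups.

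Type VIII collagen forms hexagonal networks and is made of the chains Col8a1 and Col8a2. Col8a2 (Entrez 329941, chr4:126286794-126314330) held 85, 56 and 78 counts in the control and 111, 117 and 95 counts in the EFV libraries, or 0.81, 0.56 and 0.75 FPKM and 1.06, 1.12 and 0.92 FPKM. All EFV libraries were above all control libraries, and control 2 was the lowest. The log2 fold change was 0.54 ± 0.18 (edgeR, unadjusted p = 0.0166), the largest among the tested chains, and it was 0.40 (unadjusted p = 0.059) without control 2 and 0.46 (unadjusted p = 0.058) without EFV 2. Col8a1 measured 0.82, 0.62 and 0.93 FPKM in the control and 1.04, 1.06 and 1.00 FPKM in the EFV libraries, with no overlap and control 2 again lowest. Its log2 fold change was 0.37 ± 0.16 (edgeR, unadjusted p = 0.0515), and it was 0.23 (unadjusted p = 0.18) without control 2 and 0.50 (unadjusted p = 0.019) without control 3. Summed over the 3 chains of the class, the level was 1.54 ± 0.289 FPKM in the control and 2.13 ± 0.205 FPKM in the EFV libraries (mean ± SD, n = 3), a ratio of 1.38.

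Control 2 was lowest for Col8a1, Col8a2 and Col1a2, as it was for 21 of the 41 tested chains. Its RPE sum was also the lowest, at 44.7 FPKM, and this match rests on 1 library. Rpe65, the isomerase of the visual cycle, measured 4.65, 2.35 and 5.69 FPKM in the control and 6.05, 6.59 and 6.69 FPKM in the EFV libraries (log2 fold change 0.58, edgeR unadjusted p = 0.0437), and Lrat, which esterifies retinol, measured 0.58, 0.43 and 1.00 FPKM and 1.15, 1.11 and 0.94 FPKM (0.65, unadjusted p = 0.0391). Of the 7 RPE markers these 2 were the ones called, against 3.04% of all genes tested, both adjusted p-values being 0.999. Without control 2, edgeR called 1 of the 7 at an unadjusted p of 0.05 or less, against 389 of 15423 genes. Best1 and Rrh were not lowest in control 2. Melanocyte markers, 6 of 6 listed and led by Dct, had their lowest sum in the same library. They summed to 6.46, 3.12 and 5.20 FPKM in the control and 4.70, 9.59 and 8.23 FPKM in the EFV libraries. Tyr and Slc45a2 were not lowest in control 2, and Pmel was at 0.99 FPKM in both control 2 and control 3. The part of RPE or pigmented cells in the type VIII and Col1a2 values was not tested.

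Promoter windows are shown for the 3 chains that edgeR called at the unadjusted threshold and for Col8a1 as the partner of Col8a2, with capitals as above. They lie at chr16:57754688-57754987 on the minus strand for Col8a1, chr4:126286544-126286843 on the plus strand for Col8a2, chr6:4505368-4505667 on the plus strand for Col1a2 and chr11:51289670-51289969 on the plus strand for Col23a1. The Col23a1 window rests on a start at 51289920, which lies inside the gene span given for this chain below.
Col8a1: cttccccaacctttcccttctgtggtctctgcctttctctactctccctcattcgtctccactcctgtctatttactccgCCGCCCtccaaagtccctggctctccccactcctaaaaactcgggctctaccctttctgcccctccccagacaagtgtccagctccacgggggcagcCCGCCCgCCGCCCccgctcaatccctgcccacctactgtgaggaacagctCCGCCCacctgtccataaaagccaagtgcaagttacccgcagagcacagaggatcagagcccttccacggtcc
Col8a2: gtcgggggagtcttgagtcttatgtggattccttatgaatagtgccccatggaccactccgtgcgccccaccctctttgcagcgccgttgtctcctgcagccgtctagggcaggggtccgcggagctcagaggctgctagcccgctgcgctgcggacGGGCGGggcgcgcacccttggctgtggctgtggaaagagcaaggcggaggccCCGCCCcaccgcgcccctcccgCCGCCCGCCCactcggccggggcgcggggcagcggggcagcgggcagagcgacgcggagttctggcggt
Col1a2: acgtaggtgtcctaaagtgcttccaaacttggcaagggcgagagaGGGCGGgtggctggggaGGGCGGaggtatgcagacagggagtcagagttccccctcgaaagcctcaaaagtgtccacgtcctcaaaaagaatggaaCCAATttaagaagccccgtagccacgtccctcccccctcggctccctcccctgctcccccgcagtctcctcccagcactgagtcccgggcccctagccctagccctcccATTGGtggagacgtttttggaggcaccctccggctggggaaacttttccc
Col23a1: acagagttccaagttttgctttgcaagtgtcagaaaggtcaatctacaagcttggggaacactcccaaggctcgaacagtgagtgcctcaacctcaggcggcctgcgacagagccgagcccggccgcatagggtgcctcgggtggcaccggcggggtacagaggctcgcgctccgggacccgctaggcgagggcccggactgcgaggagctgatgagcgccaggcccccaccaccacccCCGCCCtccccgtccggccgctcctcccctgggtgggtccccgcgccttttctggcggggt
GGGCGG on either strand was found 4 times each for Col8a1 and Col8a2, 2 times for Col1a2 and 1 time for Col23a1, and CCAAT was found 2 times in the Col1a2 window and in none of the other 3.

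Transmembrane collagens are single-pass proteins whose ectodomains can be shed. Col23a1 (Entrez 237759, chr11:51289679-51583925) was among the most even of the chains, with 16.2, 16.1 and 16.1 FPKM in the control and 17.6, 16.9 and 18.3 FPKM in the EFV libraries. The groups did not overlap, and the control libraries were nearly alike. Its log2 fold change was small, 0.11 ± 0.04 (edgeR, unadjusted p = 0.0272), on 2240 to 2600 counts in a library. The unadjusted p was 0.061 in DESeq2, and 0.098, 0.059 and 0.080 in edgeR without control 1, EFV 1 and EFV 3 in turn. Col25a1, a transmembrane collagen of neurons found in amyloid plaques, measured 2.10, 1.75 and 1.80 FPKM in the control and 2.67, 1.86 and 2.34 FPKM in the EFV libraries. EFV 2 lay within the control range, and the log2 fold change was 0.27 ± 0.13 (unadjusted p = 0.0663), with an unadjusted p of 0.05 or less without control 1 and without EFV 2. Col17a1, the hemidesmosome collagen of epithelia, and Col13a1 had means of 0.628 and 0.210 FPKM and overlapping groups.

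**Figure D3:**
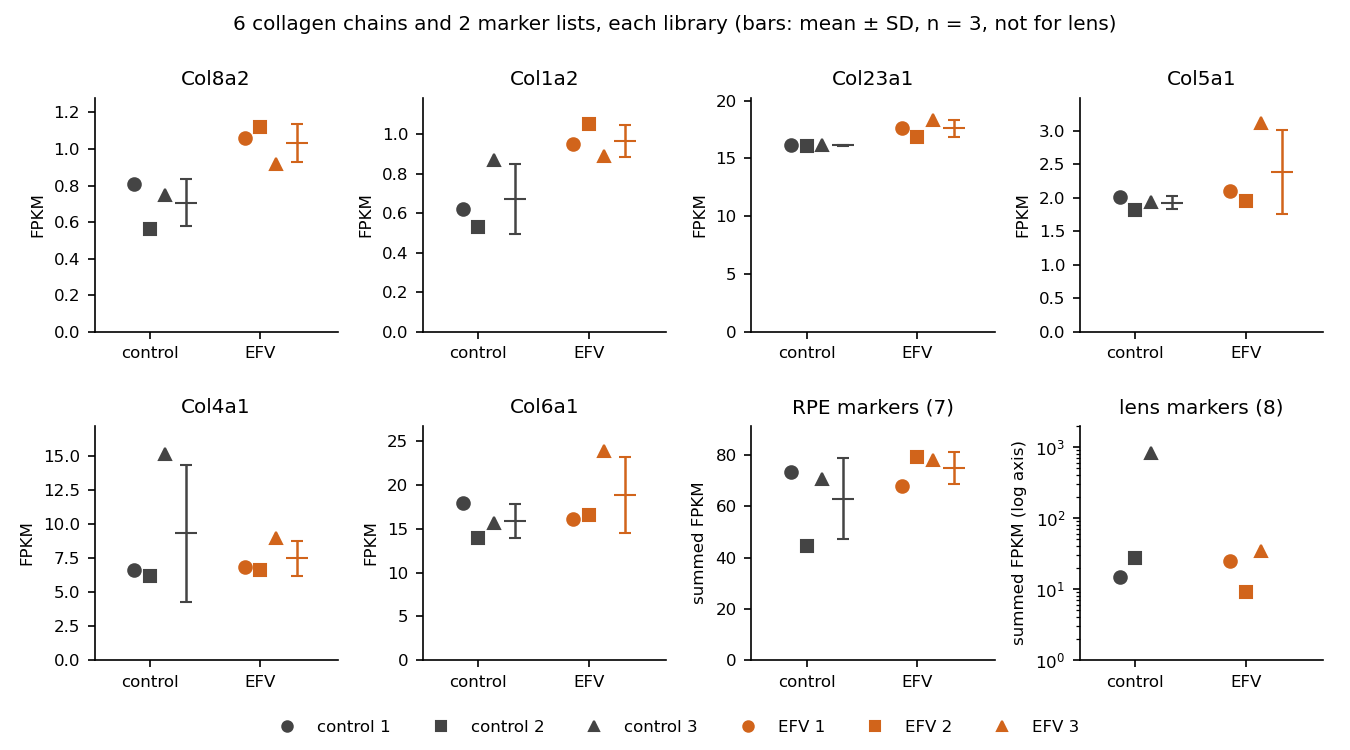
FPKM of 6 collagen chains and summed FPKM of the RPE and lens marker lists in the 3 control (grey) and 3 EFV (orange) libraries, with mean ± SD except for the lens list, which is on a log axis. Col8a2, Col1a2 and Col23a1 do not overlap between the groups, Col5a1 and Col6a1 are highest in EFV 3, Col4a1 and the lens markers are highest in control 3, and the RPE markers are lowest in control 2.

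Col7a1, the chain of the anchoring fibrils of epithelia, measured 2.44, 2.63 and 2.59 FPKM in the control and 2.2, 3.02 and 3.22 FPKM in the EFV libraries. EFV libraries held both ends of the range, with EFV 1 the lowest of all 6, and the log2 fold change was 0.13 ± 0.13 in all libraries, 0.28 (unadjusted p = 0.0042) without EFV 1, and 0.02 (unadjusted p = 0.86) without EFV 3. Col26a1 was uneven among the EFV libraries, at 0.63 FPKM in EFV 1 and 0.20 and 0.21 FPKM in EFV 2 and 3, against 0.37 to 0.46 FPKM in the control libraries. Its log2 fold change was -0.24 in all libraries and -0.99 without EFV 1. The 3 chains with too few counts to be tested were Col10a1, Col14a1 and Col28a1. Col28a1 held 1, 6 and 4 counts in the control and 5, 11 and 13 counts in the EFV libraries, and Col14a1 held 4 to 7 counts in 5 libraries and 19 in EFV 2. Col10a1 was at 0 in EFV 3 and at 2 to 11 counts elsewhere.

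Summed by class, the control and EFV libraries overlapped in every class except the type VIII and X class and the transmembrane class. Fibrillar chains summed to 25.9, 23.7 and 26.1 FPKM in the control and 25.7, 25.1 and 31.0 FPKM in the EFV libraries, with EFV 3 the only library outside the control range. Basement membrane chains summed to 31.8, 28.1 and 46.8 FPKM and to 36.7, 37.7 and 35.3 FPKM, so that the EFV values lay between the control values. The other classes summed to 77.6, 71.6 and 81.0 FPKM and to 78.5, 81.6 and 94.4 FPKM, again with EFV 3 highest and an overlap through EFV 1. The ratio of EFV to control means was 1.08 for fibrillar, 1.03 for basement membrane and 1.11 for the other chains, and for basement membrane chains it was 1.22 without control 3, 0.976 without control 1, 0.929 without control 2 and 0.997 in summed CPM.

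**Figure D4:**
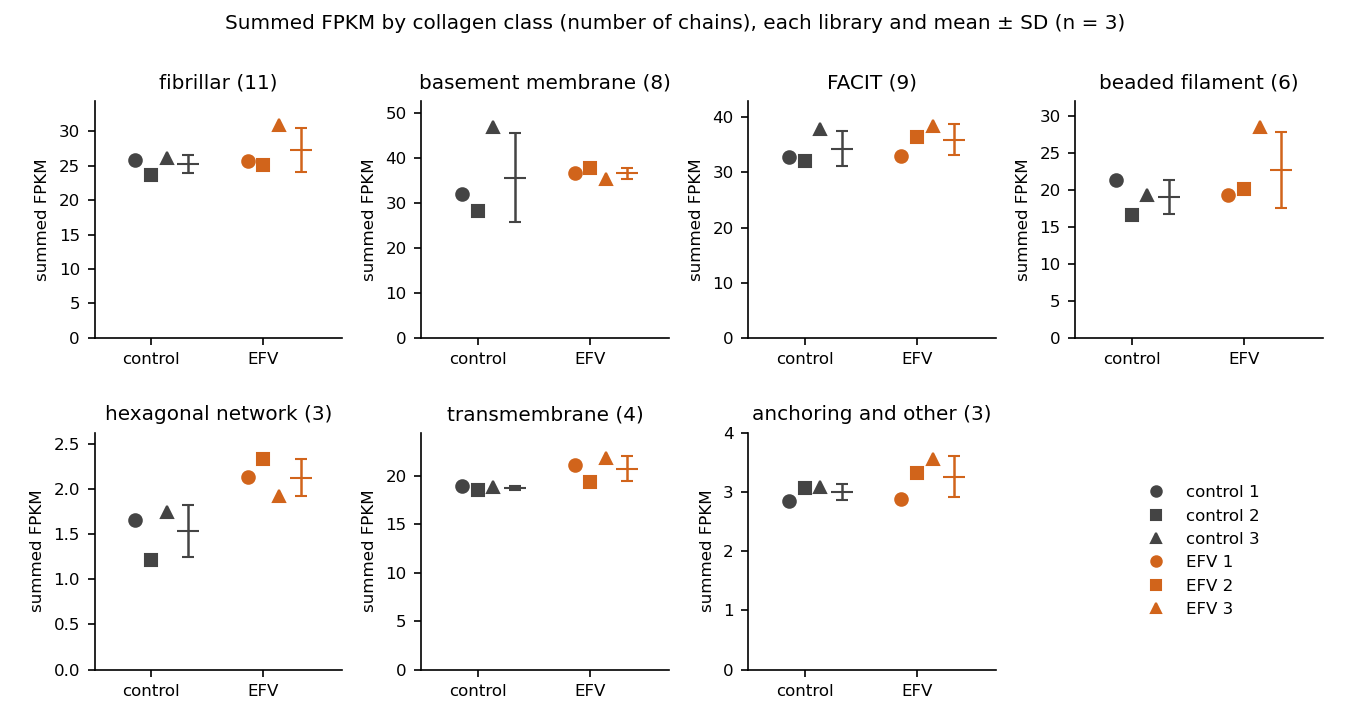
Summed FPKM of each collagen class in the 3 control (grey) and 3 EFV (orange) libraries, with mean ± SD (n = 3). The EFV values lie above the control values for the hexagonal network class (1.54 against 2.13 FPKM on average) and the transmembrane class, and the basement membrane sum is highest in control 3 at 46.8 FPKM.

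Chains that assemble with each other were not present at equal levels, and their proportions were compared as log2 ratios of FPKM in 9 pairs. Col6a1 exceeded Col6a2 in every library, with log2 ratios between 2.53 and 2.84, and Col4a3 exceeded Col4a4 with ratios between 1.63 and 2.21. Col4a1 and Col4a2 were closer to equal (0.11 to 0.78, highest in control 3), as were Col8a1 and Col8a2 (-0.08 to 0.31). Col1a1 lay below Col1a2 throughout, although type I collagen holds more of the Col1a1 chain, at log2 ratios of -0.95, -0.60 and -1.27 in the control and -0.98, -2.07 and -1.48 in the EFV libraries.

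Between the groups the ratios are given as sizes, because a two-sided exact permutation test over the 6 libraries cannot give a p below 0.10 here and so cannot decide at 0.05. The differences, EFV minus control, were -0.57 for Col1a1/Col1a2, 0.32 for Col4a3/Col4a4 and -0.15 for Col8a1/Col8a2, and the groups of these 3 pairs overlapped. Without EFV 2 the Col1a1/Col1a2 difference was -0.29, and without control 3 the Col8a1/Col8a2 difference was -0.08. In ratios of expected counts, the Col4a3/Col4a4 difference was 0.33 and reached that smallest p of 0.10, and the groups did not overlap. For the other 6 pairs the differences in FPKM ratio lay between -0.20 and 0.11, and Col9a3/Col9a2 had its lowest (-0.92) and highest (-0.02) ratio in EFV 1 and EFV 3.

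**Figure D5:**
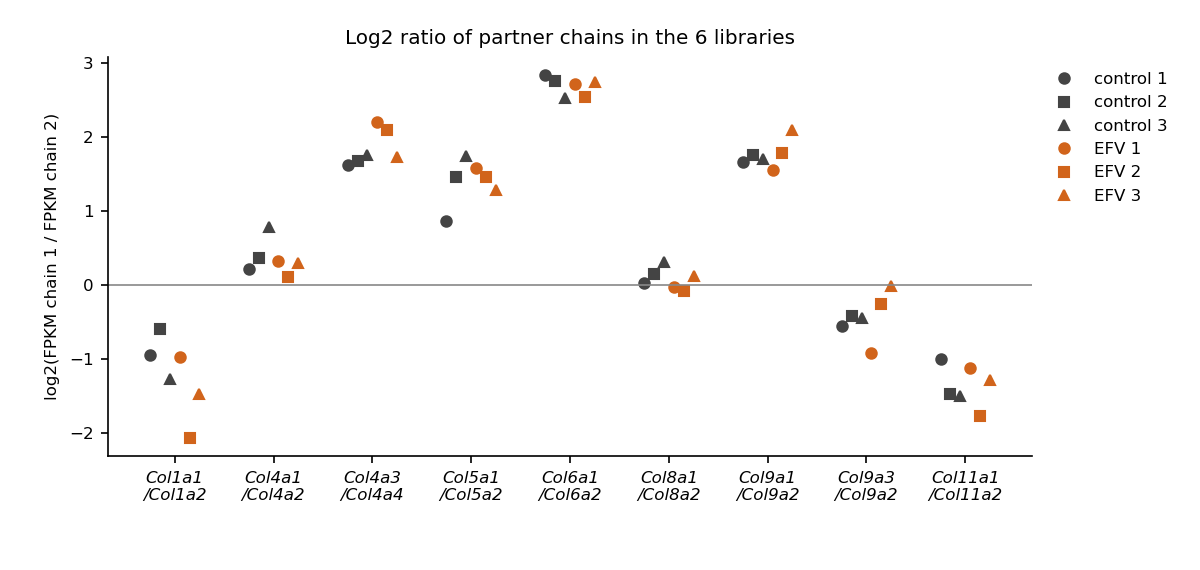
Log2 ratio of FPKM of the first to the second chain of 9 partner pairs in the 3 control (grey) and 3 EFV (orange) libraries. Ratios differ far more between pairs than between groups, from -2.07 for Col1a1/Col1a2 in EFV 2 to 2.84 for Col6a1/Col6a2 in control 1.

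Genes that fold, trim, bind or degrade collagen were followed in 4 lists. Of 58 such genes, 50 were tested, and none was called by edgeR at an adjusted or an unadjusted p of 0.05, nor by DESeq2 or limma, against the 3.04% of all genes at the unadjusted threshold. Their median log2 fold change was 0.01, with 28 of 50 above 0. Without EFV 2, 2 of them passed the unadjusted threshold (Ddr2 and P3h4), and without control 3 or EFV 1, 1 did (Pcolce and P3h3). In the same fits, 541 of 15415 genes passed without EFV 2, 523 of 15435 without control 3 and 434 of 15437 without EFV 1.

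Among the 21 folding and modification genes, P4hb, a subunit of the prolyl hydroxylase, measured 69.9, 65.4 and 70.3 FPKM in the control and 70.8, 69.7 and 71.5 FPKM in the EFV libraries. Sparc, a collagen-binding protein of the matrix, stood at 58.6, 56.7 and 72.8 FPKM in the control and 58.9, 59.4 and 60.7 FPKM in the EFV libraries. Its highest value was in control 3, as for Col4a1. The trimming and cross-linking genes, 11 of 14 tested, were led by Adamts3 and Bmp1, proteases that cleave procollagen, with means of 9.99 and 5.32 FPKM and log2 fold changes of 0.06 and 0.03. The collagen receptors, 9 of 10 tested, were led by Ddr1 and the integrin chain Itgb1, with means of 30.6 and 9.54 FPKM and log2 fold changes of 0.02 and 0.04. The breakdown genes and inhibitors, 9 of 13 tested, were led by Timp2 and Timp3, with means of 34.0 and 17.4 FPKM and log2 fold changes of 0.02 and 0.07.

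Of the markers of further collagen-producing cells, those of pericytes and smooth muscle separated the groups by a narrow gap, and those of fibroblasts, endothelium and Müller glia overlapped. The 8 fibroblast and stroma genes, led by Fbln1, summed to 10.5, 7.56 and 14.9 FPKM in control 1 to 3 and to 7.25, 16.8 and 9.37 FPKM in EFV 1 to 3, highest in EFV 2 and lowest in EFV 1, and Lum and Dpt, which define such cells, were at 0 in some libraries. Pericyte and smooth muscle genes, 8 of 8 and led by Rgs5, summed to 22.0, 21.9 and 24.4 FPKM and to 21.6, 20.7 and 21.4 FPKM, so that every EFV sum lay below every control sum, with the vascular actin Acta2 at 4.41 FPKM in control 3 and 1.36 to 2.04 FPKM elsewhere. Of the 8 genes, 6 had a log2 fold change below 0 (median -0.09). In CPM, the groups of 3 of the 8 genes did not overlap, against 8.14% of all genes tested. Rgs5 and Abcc9 were lower in every EFV than in every control library (-0.12 and -0.18), while Tagln was higher in every EFV library (0.28). In FPKM the groups of Abcc9 overlapped, at 0.99 in both control 3 and EFV 3, and those of Rgs5 and Tagln did not. Abcc9 and Tagln are named after their values were seen. Endothelial genes, 8 of 8 and led by Kdr, summed to 63.7, 60.3 and 59.5 FPKM and to 60.2, 61.5 and 56.0 FPKM. Müller glial genes, 6 of 6 and led by Glul, lay between 1120 and 1190 FPKM in sum, while Vim was highest in control 3. EFV 3, in which Col6a1, Col5a1 and Col11a2 were highest, held the highest sum of none of these 4 lists. It did so for the skeletal muscle genes, 6 of 6 and led by Mylpf, which summed to 5.77, 5.53 and 6.60 FPKM in the control and to 6.76, 6.74 and 7.67 FPKM in the EFV libraries, every EFV sum above every control sum, with Myh2 and Myh4 at 0 in some libraries. The part of these cells in the collagen values was not tested.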

How the data were processed

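Total RNA from 6 pooled retina samples was sequenced by the authors, whose processing notes name HISAT2 2.0.4, Bowtie2 2.2.5, RSEM 1.2.12 and the mm10 build. The deposited expected counts are RSEM estimates per gene and are not normalized. The deposited FPKM values divide them by gene length and library total. The release of the annotation and the strandedness are not given in the sources used here. Genes missing from a library entered as 0.

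Expected counts were rounded, and a gene entered the fit where 3 or more of the 6 libraries held 10 or more counts. The fit was made in R 4.3.3 with edgeR 4.0.16 (glmQLFTest, TMM scaling, group only, two-sided), and p-values were adjusted by Benjamini-Hochberg over all 15537 genes tested. The scripts were first tested on simulated data. DESeq2 1.42.0, limma 3.58.1 on log2(FPKM + 0.1), other scalings, filters and pseudocounts, a replicate block and the omission of each library were alternatives. Partner ratios used exact permutation tests (scipy 1.17.1). CPM used TMM-scaled totals. Counts per library were 23455167 to 24590278.

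Members and lists were chosen with earlier results of these data known. Named by rule were chains at an unadjusted p of 0.05 or less, the most abundant of each class, partner chains, chains in the study's tables, untested chains, the 2 most abundant genes of each pathway list and the leading gene of each marker list shown. Chains and genes named outside these rules, among them Col4a6, Col24a1, Col25a1, Col26a1, Rpe65, Lrat, Acta2 and Vim, were named with their values known. Coordinates and promoters are from RefSeq (GRCm38.p6), where all 44 chains were found by Entrez identifier.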

Additional observations from a re-analysis of the deposited data

How the results depend on the processing

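The count of genes at an adjusted p of 0.05 or less was 0 under every scaling, filter and limma setting, 11 in DESeq2, and between 0 and 1 when 1 library was left out. At the unadjusted threshold, all genes numbered 270 in DESeq2 and 430 to 581 in the other settings with 6 libraries. The 3 collagen chains became 5 among genes with an Entrez identifier only, where Col8a1 and Col25a1 joined. They became 4 with total counts only and in limma on log2(FPKM + 1), where Col8a1 joined. When 1 library was left out they numbered between 1 and 8, against 389 to 576 of all genes. Non-overlapping chains numbered 7 to 12 of 41 when 1 library was left out, where fewer libraries have to stand apart and 15.9% to 18.9% of all genes tested did so. Chains above 0, a count added after seeing the data, numbered 32 to 34 of 41 under other settings and 37 of 44 without a filter. With a library left out they numbered 27 to 36. Pathway genes at the unadjusted threshold numbered 0 to 2 with a library left out. Median log2 fold changes then ranged from 0.05 to 0.24 for fibrillar and from -0.11 to 0.24 for basement membrane chains. The median over all genes moved by at most 0.02 between settings.

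With the replicate number as a block, 5 collagen chains and 520 of all 15537 genes passed the unadjusted threshold, and 0 genes passed the adjusted one. Col5a1 (unadjusted p = 0.045 in edgeR) and Col25a1 joined the 3 chains. Deviations from the group means correlated at 0.125, 0.083 and 0.099 between libraries of the same number and at -0.101 to -0.006 between others, so each library correlated best with its own number. Deviations within a group sum to 0, so the negative values follow largely from the positive ones and are not separate observations. This match is no part of the stated design and was not tested, and the numbers were not used as a pairing.

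Of the 408 fold changes of 24 chains under 17 settings, 30 changed sign. Those of Col1a1 were -0.01 and -0.02 in limma with a pseudocount of 0.1 and 0.01 and -0.01 with the block, and that of Col18a1 was 0.00 with the block. With 1 library left out, log2 fold changes ranged from -0.17 to 0.24 for Col11a1, -0.04 to 0.25 for Col11a2, -0.24 to 0.18 for Col18a1, -0.26 to 0.21 for Col1a1, -0.07 to 0.11 for Col20a1, -0.12 to 0.14 for Col27a1, -0.01 to 0.06 for Col2a1, -0.55 to 0.20 for Col4a1, -0.22 to 0.23 for Col4a2, 0.04 to 0.58 for Col4a3, -0.21 to 0.14 for Col4a4, -0.17 to 0.50 for Col5a2, 0.13 to 0.39 for Col6a2, 0.24 to 0.45 for Col6a4, 0.02 to 0.28 for Col7a1, 0.23 to 0.50 for Col8a1, -0.02 to 0.18 for Col9a1, -0.16 to 0.07 for Col9a2 and -0.06 to 0.26 for Col9a3. Col8a2, Col1a2 and Col23a1 stayed above 0 under all 17 settings. Differences in log2 partner ratio ranged from -0.83 to -0.29 for Col1a1/Col1a2, -0.32 to -0.04 for Col4a1/Col4a2, 0.23 to 0.46 for Col4a3/Col4a4, -0.22 to -0.08 for Col8a1/Col8a2, -0.16 to 0.28 for Col5a1/Col5a2, -0.13 to 0.03 for Col6a1/Col6a2, -0.03 to 0.23 for Col9a1/Col9a2, -0.11 to 0.34 for Col9a3/Col9a2 and -0.21 to 0.11 for Col11a1/Col11a2. The cause of these shifts was not tested.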

Other observations

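Outside the collagen comparisons, the markers of glial, vascular and immune cells gave the following picture. Log2 fold changes of the 8 endothelial genes were all below 0, with a median of -0.11. None had an unadjusted p of 0.05 or less in edgeR, against 3.04% of all genes tested. The 4 astrocyte genes, led by S100b, summed to 13.7, 11.1 and 13.8 FPKM in the control and to 16.9, 12.8 and 15.8 FPKM in the EFV libraries, with all 4 log2 fold changes above 0 and overlapping sums. The 6 microglia and macrophage genes, led by Csf1r, summed to 8.77, 8.01 and 6.94 FPKM and to 8.55, 7.89 and 7.93 FPKM.

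Markers of the cornea and of the ciliary body and iris summed to at most 16.9 FPKM in any library. Cornea and surface epithelium genes, 6 of 6 and led by Aldh3a1, summed to 3.61, 3.82 and 15.7 FPKM in the control and to 5.48, 2.92 and 5.84 FPKM in the EFV libraries, with Krt14 and Kera at 0 in some libraries. The high sum of control 3 came from Aldh3a1, at 13.8 FPKM there and 0.84 to 1.45 FPKM in the other libraries. Ciliary body and iris genes, 5 of 5 and led by Slc4a5, summed to 12.6, 12 and 16.1 FPKM and to 12.3, 16.9 and 14.5 FPKM.

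Of the lens genes, 7 of 7 tested had an unadjusted p of 0.05 or less in edgeR, all lower with EFV (median log2 fold change -3.61). Of all 15537 genes tested, 472 (3.04%) passed that threshold, 241 of them lower with EFV. Without control 3, edgeR called 0 of the 7 at that threshold, against 523 of 15435 genes. The median log2 fold change of the 7 genes was then -0.02, and their lowest unadjusted p was 0.45.

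Among the collagen pathway genes, the groups of 2 of 50 tested (4.0%) did not overlap in CPM. This was a smaller share than the 8.14% of all genes tested. These 2 were P3h3 and Crtap, members of the prolyl 3-hydroxylase family and its complex, named here after their values were seen. P3h3 measured 9.79, 9.62 and 10.1 FPKM in the control and 9.77, 10.1 and 12.2 FPKM in the EFV libraries, so that its groups overlapped in FPKM. Crtap measured 2.92, 2.60 and 2.80 FPKM and 2.98, 3.18 and 3.45 FPKM, without overlap. The log2 fold changes of P3h3 and Crtap were 0.13 and 0.19, with unadjusted p-values of 0.12 and 0.18 in edgeR.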
